A study of Mus musculus with 8 samples.

Results

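The Bcl2 family of apoptosis regulators was followed through 10 genes in mouse embryonic stem cells. The members were taken from the deposited count table by gene symbol: the anti-apoptotic Bcl2, Bcl2l1 and Mcl1, the effectors Bax and Bak1, and the BH3-only genes Bbc3, Pmaip1, Bcl2l11, Bid and Bad. All 10 were among the 55292 features of the table, and all 10 passed the filter on low counts that left 17342 genes for testing. The cells were of the E14 line (strain 129/Ola), grown on gelatin with serum and leukaemia inhibitory factor, and poly(A) RNA was sequenced. There were 3 groups of 2 libraries. KO_Smad7 stands for lncSmad7-/- cells that carry the label Smad7 transfected and whose descriptions name 24 h. Smad7 protein inhibits signalling of the TGF-beta family. KO stands for untreated lncSmad7-/- cells, whose labelled genotype is a loss of the long noncoding RNA lncSmad7, and WT for untreated wild type E14 cells. KO_Smad7 and KO carry the same genotype label. KO was not transfected, so transfection itself and Smad7 cannot be told apart in a comparison of KO_Smad7 with KO. KO_Smad7 and WT differ in genotype label, transfection and Smad7 label at once, and these cannot be told apart either. No source used here gives the number of knockout clones. The replicates are described as biological, and nothing says that they came from separate cultures. The p-values therefore reflect only how far these libraries differ, and part of that spread may be technical.

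Bcl2 family proteins decide whether the outer mitochondrial membrane stays intact. Bcl2, Bcl2l1 (Bcl-xL) and Mcl1 hold the effectors Bax and Bak1 in check. Bax and Bak1, once active, form pores that let cytochrome c escape and start the caspase cascade. BH3-only proteins respond to stress: Bbc3 (Puma) and Pmaip1 (Noxa) are classic targets of p53, Bcl2l11 (Bim) is a target of FoxO factors, Bid is cut by caspase 8 in death receptor signalling, and Bad is held inactive by phosphorylation downstream of growth factors. Embryonic stem cells are known to be readily killed by DNA damage, and Mcl1 is known as a survival factor in them. Transcript levels do not show the cleavage, phosphorylation or turnover of these proteins.

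The promoters of 3 pro-apoptotic members are shown because they hold a match to a motif of the factors named above, FoxO or p53. The windows are from RefSeq (GRCm38.p6), run 5′ to 3′ on the strand of the gene, and cover 250 bases before and 50 bases from the start site. Capitals mark the match. The Bbc3 window shown is chr7:16310011-16310310 on the plus strand, inside the annotated gene, and is not the only window of Bbc3. It holds the FoxO motif GTAAACA on the opposite strand, at −167 to −161 from the start site. The CACGTG and CCAAT matches counted for Bbc3 below are not in the window shown. The Bcl2l11 window is chr2:128125788-128126087 on the plus strand, with GTAAACA at −227 to −221. The Bax window is chr7:45466849-45467148 on the minus strand, with a match to the p53 consensus decamer at −201 to −192.
Bbc3: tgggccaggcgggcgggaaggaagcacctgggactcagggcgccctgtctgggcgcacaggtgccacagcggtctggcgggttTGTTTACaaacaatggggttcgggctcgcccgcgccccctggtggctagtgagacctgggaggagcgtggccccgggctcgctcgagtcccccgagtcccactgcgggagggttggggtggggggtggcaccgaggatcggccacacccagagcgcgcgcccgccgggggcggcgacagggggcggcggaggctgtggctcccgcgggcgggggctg
Bcl2l11: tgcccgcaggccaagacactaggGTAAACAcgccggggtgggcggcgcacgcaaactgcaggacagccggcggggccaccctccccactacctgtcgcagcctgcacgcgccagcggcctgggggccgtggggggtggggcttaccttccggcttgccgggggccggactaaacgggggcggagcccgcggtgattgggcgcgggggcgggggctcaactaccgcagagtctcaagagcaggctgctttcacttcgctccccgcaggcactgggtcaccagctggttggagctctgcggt
Bax: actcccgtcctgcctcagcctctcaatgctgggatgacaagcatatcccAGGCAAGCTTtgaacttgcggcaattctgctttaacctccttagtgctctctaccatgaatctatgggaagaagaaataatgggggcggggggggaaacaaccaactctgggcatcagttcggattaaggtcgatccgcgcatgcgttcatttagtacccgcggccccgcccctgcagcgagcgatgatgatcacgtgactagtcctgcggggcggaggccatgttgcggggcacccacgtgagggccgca
Both strands were searched for 10 motifs. These were the FoxO motif GTAAACA, the p53 consensus decamer, the E2F motifs TTTCCCGC and TTTGGCGC, the cAMP response element TGACGTCA, the E-box CACGTG, the C/EBP-ATF element TGATGCAA, the GC box GGGCGG, the CCAAT box and the TATA box TATAAA. RefSeq had 15 windows for 9 of the 10 members. GTAAACA was in 2 of the 15 and in 3.65% of all 32851 windows, and the p53 decamer was in 1 of the 15 and in 8.36% of all windows. CACGTG was in 1 window each of Bax and Bbc3 and in 7.15% of all windows. The common GC box GGGCGG was in 10 of the 15 windows, covering 7 members, and in 35.7% of all windows. CCAAT was in 4 of the 15 windows, covering 3 members, and in 37.4% of all windows. The E2F motifs, the cAMP response element, the C/EBP-ATF element and TATAAA were in none of the members' windows, and in 1.07% and 0.514%, 1.79%, 0.895% and 13.6% of all windows. The printed matches overlapped no other motif searched. A match describes these letters and is not evidence of binding.

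Total counts were 13392941 and 15972163 in KO_Smad7, 19455030 to 20159897 in KO, and 19260386 to 20209760 in WT. lncSmad7 stood at 10.8 and 11.2 CPM (counts scaled to library size with TMM factors) in KO_Smad7, 7.13 and 5.52 CPM in KO, and 14.0 and 12.3 CPM in WT. Reads of the gene labelled as lost therefore remained in KO, at a log2 fold of −1.05 against WT (adjusted p = 3e-14), and were higher again in KO_Smad7, at 0.79 against KO (adjusted p = 9.3e-09) and −0.26 against WT (adjusted p = 0.027, edgeR's quasi-likelihood test, Benjamini-Hochberg adjustment). Smad7 itself was at 93.7 and 99.2 CPM in KO_Smad7, 75.4 and 69.5 CPM in KO, and 97.5 and 97.6 CPM in WT. Its log2 fold was 0.41 for KO_Smad7 against KO (adjusted p = 3.2e-14), −0.01 for KO_Smad7 against WT (adjusted p = 0.79) and −0.43 for KO against WT (adjusted p = 5.9e-15, edgeR). The libraries are called by their labels. All 7 pluripotency markers were detected in every library. Their sum was 3437 to 3453 CPM in KO_Smad7, 5695 to 5789 CPM in KO and 4083 to 4141 CPM in WT, and all 7 were lower in KO_Smad7 than in KO. The 6 fibroblast markers summed to 8.57 to 8.70, 5.52 to 6.16 and up to 5.70 CPM in KO_Smad7, KO and WT, with Col3a1 and Lum at 0 in both KO_Smad7 and KO. Of the 6, only Col1a1 and Thy1 passed the filter on low counts. Both were higher in KO_Smad7 than in KO, at log2 folds of 1.39 and 0.36. The 3 primitive endoderm markers summed to 5.94 to 6.38, 3.83 to 4.38 and 20.7 to 22.3 CPM in KO_Smad7, KO and WT. In the same order, the neuroectoderm pair summed to 11.8 to 13.2, 31.3 to 32.8 and 24.2 to 26.3 CPM, and the mesoderm pair to at most 0.594, 0.683 and 2.40 CPM. The trophectoderm pair reached at most 0.503 CPM in any library. The white blood cell pair summed to 33.6 to 37.3, 18.5 to 18.8 and 12.3 to 13.3 CPM, nearly all of it Cd68, and Ptprc was at 0 in WT. Mitochondrial transcripts took 2.33% to 2.48% of counts in KO_Smad7, 1.37% to 1.40% in KO and 1.53% to 1.58% in WT. What these shifts contribute to the members' differences was not tested, and in bulk RNA fewer cells of a type and less RNA per cell cannot be told apart.

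Within the family, the BH3-only genes Pmaip1 and Bbc3 moved opposite to Bid and, in KO_Smad7, to the effectors. Pmaip1 and Bbc3 rose in KO against WT and again in KO_Smad7 against KO, by 1.43-fold to 3.02-fold. Bax and Bak1 fell in KO_Smad7 against both other groups, by 1.48-fold to 1.77-fold. Bid fell at both steps, and Bcl2l1 was lower in KO and in KO_Smad7 than in WT. Mcl1 stayed the most abundant member by far in all 3 groups.

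In KO against WT, 6 of the 10 members passed the threshold of an adjusted p of 0.05, 4 higher and 2 lower, where 67.7% of all genes tested passed, 34.5% higher and 33.3% lower. In KO_Smad7 against KO, 7 members passed, 2 higher and 5 lower, against 74.6% of all genes, 37.8% higher and 36.8% lower. In KO_Smad7 against WT, 8 members passed, 3 higher and 5 lower, against 81.9% of all genes, 43.1% higher and 38.8% lower. The members' share of calls was thus near the background in each comparison, and the number of calls alone says nothing about the family. The median log2 fold of the 10 members was −0.02, −0.13 and −0.26 in the same order, beside 0.02, 0.04 and 0.09 over all genes tested. Against a fold of 1.5 (glmTreat) 2, 2 and 5 members passed, beside 27.4%, 34.6% and 53.1% of all genes. The 3 comparisons share libraries and are not independent of one another. Scaling by library size alone moves the median of all genes to 0.17, 0.29 and 0.48. It adds a near-constant 0.14, 0.25 and 0.39 to the log2 folds of the 3 comparisons. The members' calls then split as 6 higher and 2 lower, 5 higher and 3 lower, and 4 higher and 4 lower. With RLE scaling the split was 3 and 3 in KO against WT, and 2 and 5 in both other comparisons. With offsets for GC content and transcript length it was 2 higher and 5 lower, 2 and 3, and 2 and 5. The shares of all genes called higher and lower with these scalings and offsets are not given here. These splits are therefore not read as a result about the family.

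**Figure D1:**
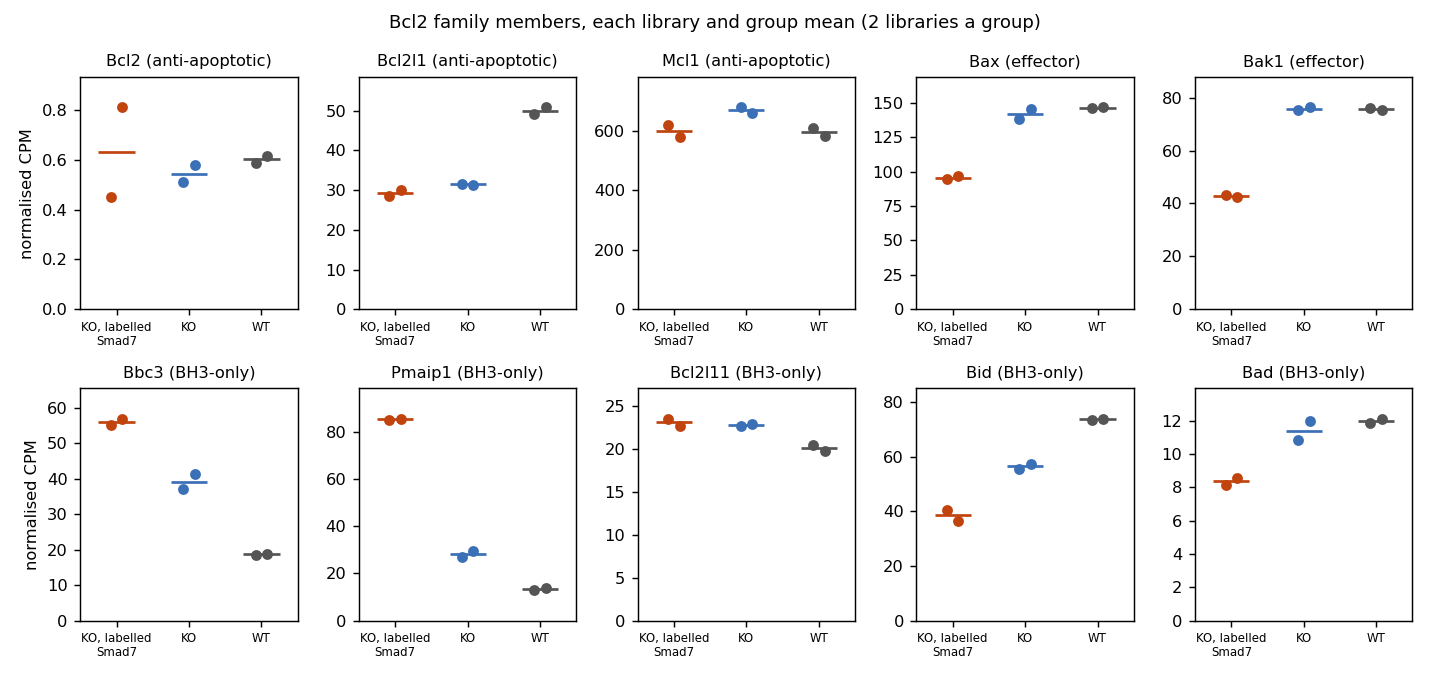
Normalised CPM (vertical axes, each from 0) of the 10 members in KO_Smad7 (axis label KO, labelled Smad7), KO and WT, with a point for each library and a line at the mean of 2 libraries. Pmaip1 and Bbc3 step down in order from KO_Smad7 to WT, Bid steps up, and Bax and Bak1 are lower in KO_Smad7 than in the other groups.

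Among the anti-apoptotic members, Bcl2l1 was the one with a fall that separated the knockout groups from WT. Bcl2l1 (chromosome 2, 152780668 to 152831728, minus strand, GRCm38) had 28.6 and 30.1 CPM in KO_Smad7, 31.6 and 31.3 CPM in KO, and 49.3 and 50.8 CPM in WT. Both WT libraries lay above all 4 others, and the KO_Smad7 and KO libraries also did not overlap but were close. The log2 fold was −0.67 (SE 0.063) for KO against WT, 1.59-fold lower with an adjusted p of 2.9e-19. For KO_Smad7 against WT it was −0.77 (SE 0.065), 1.70-fold lower with an adjusted p of 2.4e-22, and −0.38 with library size scaling. KO_Smad7 against KO gave −0.10 (95% confidence interval −0.23 to 0.041, adjusted p = 0.2, edgeR), and this value turned to 0.15 (adjusted p = 0.044) with library size scaling.

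Mcl1, the short-lived member that binds Bak1 and Noxa, lies on chromosome 3 at 95658788 to 95663176 on the plus strand. It had 620.0 and 579.9 CPM in KO_Smad7, 679.4 and 661.2 CPM in KO, and 610.8 and 584.3 CPM in WT. The KO libraries were above the others, and KO_Smad7 and WT overlapped. The rise in KO against WT was small, at a log2 fold of 0.17 (SE 0.036, adjusted p = 1.6e-05), and so was the fall in KO_Smad7 against KO, at −0.16 (SE 0.036, adjusted p = 2.7e-05, edgeR). Neither held under every processing: with offsets for GC content and transcript length they came to 0.0067 (adjusted p = 0.85) and −0.025 (adjusted p = 0.42), and with library size scaling to 0.31 and 0.087, the second with its direction turned. KO_Smad7 against WT gave 0.0054 (95% confidence interval −0.065 to 0.076).

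Bcl2 (chromosome 1, 106538178 to 106714274, minus strand), the founding member of the family, was barely detected. Its raw counts were 7 and 15 in KO_Smad7, 10 and 11 in KO, and 10 and 11 in WT, or 0.451 to 0.810 CPM over all libraries. The groups overlapped. At this depth no difference was detectable, with a log2 fold for KO against WT of −0.15 (95% confidence interval −1.05 to 0.76, adjusted p = 0.79, edgeR) and for KO_Smad7 against KO of 0.25 (95% confidence interval −0.65 to 1.14, adjusted p = 0.63). Its annotated exons share 558 bases with an antisense gene, D630008O14Rik. No source used here states whether counting used strand, so reads of such a pair cannot be told apart.

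Both effectors fell in KO_Smad7, while their small differences between KO and WT depended on the processing. Bax (chromosome 7, 45461697 to 45466898, minus strand) had 94.7 and 96.6 CPM in KO_Smad7, 138.1 and 145.6 CPM in KO, and 146.0 and 146.7 CPM in WT. The KO_Smad7 libraries lay below all others, and KO came close to WT. Its log2 fold for KO_Smad7 against KO was −0.57 (SE 0.043, adjusted p = 8.3e-26), 1.48-fold lower, and against WT −0.61 (SE 0.043, adjusted p = 1.7e-28). The size of the fall depended on the processing, at −0.21 and −0.36 with GC and length offsets and −0.32 and −0.22 with library size scaling. For KO against WT it was −0.05 (95% confidence interval −0.13 to 0.035, adjusted p = 0.33, edgeR), which was called lower with RLE scaling (−0.10, adjusted p = 0.023) and with GC and length offsets (−0.15, adjusted p = 9e-05), and higher with library size scaling (0.099, adjusted p = 0.025). Exons of Bax share 192 bases with Gm45808 on the same strand.

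Bak1 (chromosome 17, 27019810 to 27029009, minus strand), the effector that sits in the membrane at rest, had 43.1 and 42.4 CPM in KO_Smad7, 75.3 and 76.3 CPM in KO, and 76.2 and 75.3 CPM in WT. KO and WT overlapped, and KO_Smad7 was well below both. The log2 fold was −0.83 for KO_Smad7 against KO (SE 0.054, adjusted p = 5.5e-31) and −0.83 against WT (SE 0.055, adjusted p = 1.1e-30, edgeR), or 1.77-fold lower against each, and against WT −0.44 with library size scaling. KO against WT gave 0.0010 (95% confidence interval −0.096 to 0.098, adjusted p = 0.99). This value was −0.23 (adjusted p = 2.7e-06) with GC and length offsets and 0.145 (adjusted p = 0.0066) with library size scaling, so its direction depends on the processing. Exons of Bak1 overlap those of Ggnbp1 on the opposite strand.

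**Figure D2:**
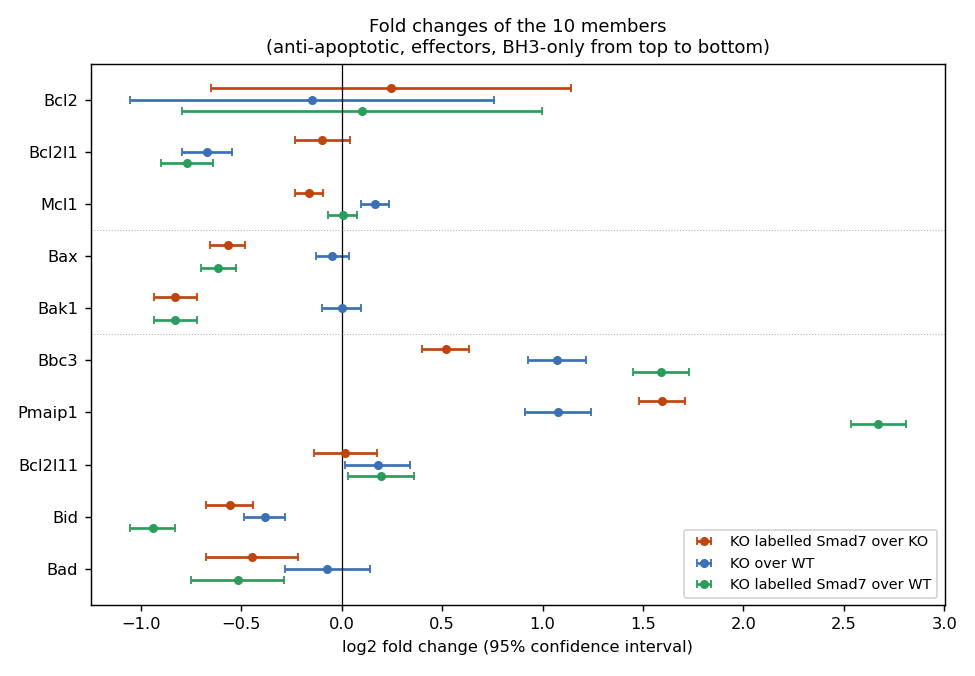
Fitted log2 fold change (horizontal axis) of each member with its 95% confidence interval, for KO_Smad7 against WT, KO_Smad7 against KO, and KO against WT. Pmaip1 and Bbc3 lie to the right of 0 in every comparison and Bid to the left, while the interval of Bcl2 spans 0 in each.

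Among the BH3-only genes, Pmaip1 changed by the greatest fold of all 10 members. Pmaip1 (chromosome 18, 66458533 to 66465565, plus strand), whose product Noxa binds and neutralises Mcl1, had 85.1 and 85.4 CPM in KO_Smad7, 27.1 and 29.4 CPM in KO, and 13.02 and 13.7 CPM in WT. The 3 groups did not overlap. It was 2.11-fold higher in KO than in WT (log2 1.08, SE 0.083, adjusted p = 3.3e-25). That log2 fold was 1.40 with GC and length offsets and 1.22 with library size scaling. KO_Smad7 was 3.02-fold above KO (log2 1.59, SE 0.059, adjusted p = 3.3e-57) and 6.37-fold above WT (log2 2.67, SE 0.070, adjusted p = 1.4e-76, edgeR).

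Bbc3 (chromosome 7, 16308393 to 16318205, plus strand), whose FoxO motif is shown above and whose product Puma binds all anti-apoptotic members, had 55.2 and 56.9 CPM in KO_Smad7, 37.2 and 41.2 CPM in KO, and 18.4 and 18.8 CPM in WT. Again no groups overlapped. It was 2.10-fold higher in KO than in WT (log2 1.07, SE 0.073, adjusted p = 2.5e-29) and 1.43-fold higher in KO_Smad7 than in KO (log2 0.52, SE 0.060, adjusted p = 3.2e-14, edgeR). With GC and length offsets that second difference was 0.82. KO_Smad7 was 3.01-fold above WT (log2 1.59, SE 0.070, adjusted p = 1.3e-48).

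Bcl2l11 (chromosome 2, 128126038 to 128162547, plus strand), the gene of Bim, had 23.5 and 22.6 CPM in KO_Smad7, 22.6 and 22.9 CPM in KO, and 20.4 and 19.7 CPM in WT. Its WT libraries were below all others, and KO_Smad7 and KO overlapped. The rise in KO against WT was 0.18 on the log2 scale (SE 0.081, adjusted p = 0.043), and that in KO_Smad7 against WT 0.20 (SE 0.083, adjusted p = 0.024, edgeR). Both calls were fragile. Without any 1 of the 4 libraries the first had an adjusted p of 0.074 to 0.2, and the second was lost without KO_Smad7 replicate 1, WT replicate 1 or WT replicate 2 (adjusted p = 0.064 to 0.18). With GC and length offsets they came to 0.016 (adjusted p = 0.87) and 0.031 (adjusted p = 0.73), and neither was called by DESeq2 (adjusted p = 0.46 and 0.38) or with RLE scaling (adjusted p = 0.17 and 0.089). KO_Smad7 against KO gave 0.02 (95% confidence interval −0.14 to 0.18, adjusted p = 0.84), and 0.27 (adjusted p = 0.0018) with library size scaling.

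Bid (chromosome 6, 120891930 to 120916853, minus strand), which links death receptors to mitochondria, moved opposite to Bbc3 and Pmaip1. It had 40.5 and 36.5 CPM in KO_Smad7, 55.4 and 57.4 CPM in KO, and 73.3 and 73.8 CPM in WT, with no overlap between groups. It was lower in KO than in WT (log2 −0.38, SE 0.053, adjusted p = 6.3e-11), 1.47-fold lower in KO_Smad7 than in KO (log2 −0.56, SE 0.059, adjusted p = 3.3e-16) and 1.92-fold lower in KO_Smad7 than in WT (log2 −0.94, SE 0.057, adjusted p = 3.7e-34, edgeR). With library size scaling these log2 folds were −0.24, −0.31 and −0.55. Exons of Bid share 628 bases with Bcl2l13 on the opposite strand.

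Bad (chromosome 19, 6941861 to 6951899, plus strand), the growth factor sensor, had 8.12 and 8.59 CPM in KO_Smad7, 10.8 and 12.0 CPM in KO, and 11.8 and 12.1 CPM in WT. KO_Smad7 lay below the others, and KO overlapped WT. It fell in KO_Smad7 against KO by 1.36-fold (log2 −0.45, SE 0.12, adjusted p = 0.00036) and against WT by 1.43-fold (log2 −0.52, SE 0.12, adjusted p = 3.5e-05, edgeR). Both falls were lost with library size scaling (log2 −0.20 and −0.13, adjusted p = 0.12 and 0.32), and the first also with GC and length offsets (log2 −0.24, adjusted p = 0.053). KO against WT gave −0.07 (95% confidence interval −0.28 to 0.14, adjusted p = 0.57), which was called lower with GC and length offsets (−0.25, adjusted p = 0.031) and turned to 0.072 (adjusted p = 0.57) with library size scaling. Exons of Bad share 524 bases with Gpr137 on the opposite strand.

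The pro-apoptotic and the anti-apoptotic members were also counted side by side. Of the 7 pro-apoptotic members 3 rose and 1 fell in KO against WT, 2 rose and 4 fell in KO_Smad7 against KO, and 3 rose and 4 fell in KO_Smad7 against WT. Their median log2 folds were 0.0010, −0.45 and −0.52. Of the 3 anti-apoptotic members 1 rose and 1 fell in KO against WT, and in both other comparisons 1 fell and none rose, with medians of −0.15, −0.096 and 0.0054. Of all genes tested, 34.5% rose and 33.3% fell in KO against WT. The shares were 37.8% and 36.8% in KO_Smad7 against KO, and 43.1% and 38.8% in KO_Smad7 against WT. The counts include calls of Bcl2l11, Mcl1 and Bad that did not hold under every processing, as given above.

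To compare amounts between genes, CPM was divided by the length of each gene's exons in kb. On that scale the summed pro-apoptotic level was 152.7 and 153.4 CPM per kb in KO_Smad7, 169.0 and 178.0 in KO, and 165.5 and 166.3 in WT. The summed anti-apoptotic level was 187.7 and 176.3 CPM per kb in KO_Smad7, 205.7 and 200.3 in KO, and 189.5 and 182.1 in WT. The ratio of pro- to anti-apoptotic sums was 0.813 and 0.870 in KO_Smad7, 0.822 and 0.888 in KO, and 0.874 and 0.913 in WT. The KO_Smad7 and KO ratios overlapped each other and KO overlapped WT, while both KO_Smad7 ratios lay just below both WT ratios. The mean log2 ratio differed by −0.064 for KO minus WT, −0.022 for KO_Smad7 minus KO and −0.086 for KO_Smad7 minus WT, beside a pooled SD of 0.066. Single libraries set these values: leaving out 1 at a time gave −0.0077 (without KO replicate 1) to −0.12 (without KO replicate 2) for KO minus WT, −0.079 (without KO replicate 1) to 0.034 (without KO replicate 2) for KO_Smad7 minus KO, and −0.038 (without KO_Smad7 replicate 1) to −0.13 (without KO_Smad7 replicate 2) for KO_Smad7 minus WT. With the longest transcript as the length they were −0.064, −0.084 and −0.15. No test was made, since members are not replicates and 2 against 2 libraries cannot reach 0.05 by permutation. Sums of transcript levels do not measure the balance of the proteins.

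The make-up of these sums changed more than their ratio. The effectors summed to 78.0 and 78.9 CPM per kb in KO_Smad7, 118.9 and 124.1 in KO, and 124.3 and 124.4 in WT. The BH3-only genes summed to 74.6 and 74.5 CPM per kb in KO_Smad7, 50.1 and 53.9 in KO, and 41.3 and 41.9 in WT. The BH3-only sums of the 3 groups did not overlap, while the effector sums were far lower in KO_Smad7 and only just lower in KO than in WT. Within the BH3-only sum, Bbc3 and Pmaip1 together held 76.6% and 77.9% in KO_Smad7, 54.7% and 56.0% in KO, and 32.6% and 33.2% in WT. Bid held 15.3% and 13.8% in KO_Smad7, 31.2% and 30.0% in KO, and 50.1% and 49.7% in WT. With the longest transcript as the length, Bbc3 and Pmaip1 held 69.8% and 71.3% in KO_Smad7, 46.8% and 48.1% in KO, and 26.2% and 26.7% in WT. Mcl1 made up 96.2% to 96.7% of the anti-apoptotic sum in KO_Smad7, 96.6% in both KO libraries, and 93.9% to 94.3% in WT.

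**Figure D3:**
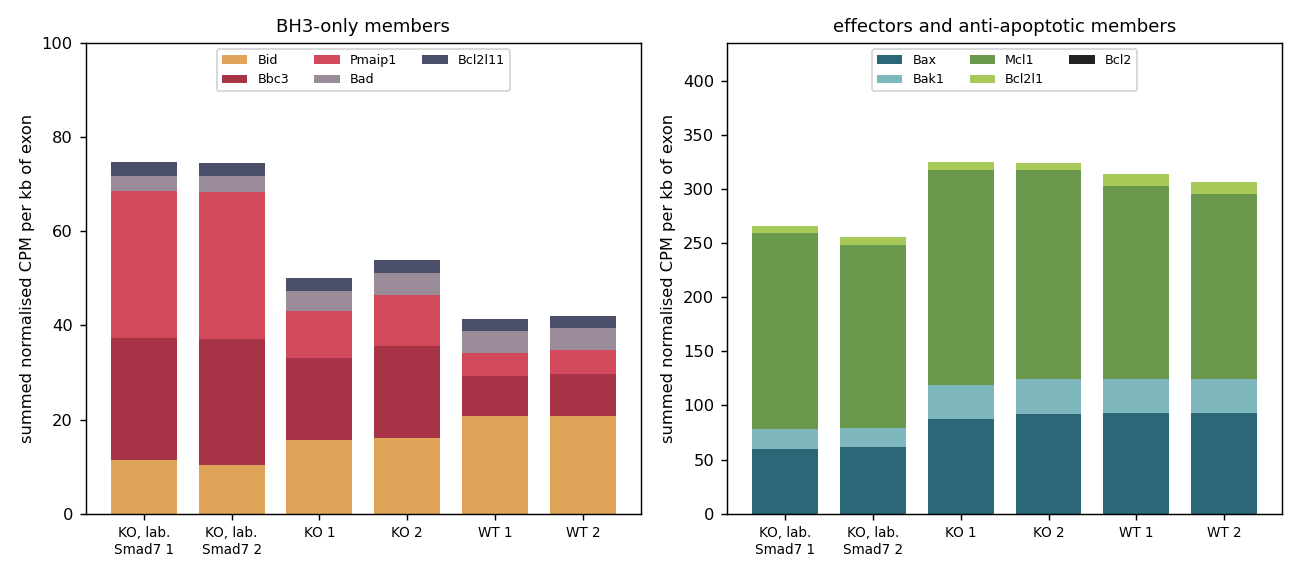
Stacked bars of summed normalised CPM per kb of exon in each library of KO_Smad7 (axis label KO, lab. Smad7), KO and WT, coloured by gene, with the BH3-only members on the left and the effectors and anti-apoptotic members on the right. The Bbc3 and Pmaip1 segments are largest in KO_Smad7 and the Bid segment in WT, the Bax and Bak1 segments are smallest in KO_Smad7, and Mcl1 is the largest segment of every bar on the right.

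The order of the members by length-scaled level changed in the middle and not at the ends. Mcl1 and Bax led in every group, at 175.5 ± 8.3 and 60.7 ± 0.83 CPM per kb in KO_Smad7, 196.1 ± 3.8 and 90.0 ± 3.4 in KO, and 174.8 ± 5.5 and 92.9 ± 0.33 in WT (SD, n = 2 each). Bcl2l11 and Bcl2 closed it, Bcl2 at 0.069 ± 0.028, 0.059 ± 0.0053 and 0.066 ± 0.0019 CPM per kb in the same groups. In KO_Smad7 Pmaip1 (31.2 ± 0.086) and Bbc3 (26.4 ± 0.55) came next, followed by Bak1, Bid, Bcl2l1 and Bad. In KO the next was Bak1 (31.5 ± 0.30), followed by Bbc3, Bid, Pmaip1, Bcl2l1 and Bad. In WT it was Bak1 (31.5 ± 0.24), followed by Bid, Bcl2l1, Bbc3, Pmaip1 and Bad. No neighbours in these orders, which use the length of all exons, had overlapping libraries. The closest pairs for their spread were Pmaip1 and Bad in WT, 0.214 CPM per kb apart with an SD of 0.186, and Bbc3 and Bid in KO, 2.56 apart with an SD of 1.35. With the length of the longest transcript Mcl1 and Bax still led and Bcl2l11 and Bcl2 still closed every order, but the middle of the order changed. Pmaip1 (31.3 ± 0.086) and Bbc3 (30.9 ± 0.64) then had overlapping libraries in KO_Smad7. In KO, Bid (23.4 ± 0.58) lay above Bbc3 (21.6 ± 1.6) and Bcl2l1 (12.2 ± 0.072) above Pmaip1 (10.4 ± 0.60), and in WT, Bad (7.81 ± 0.13) lay above Pmaip1 (4.91 ± 0.19).

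**Figure D4:**
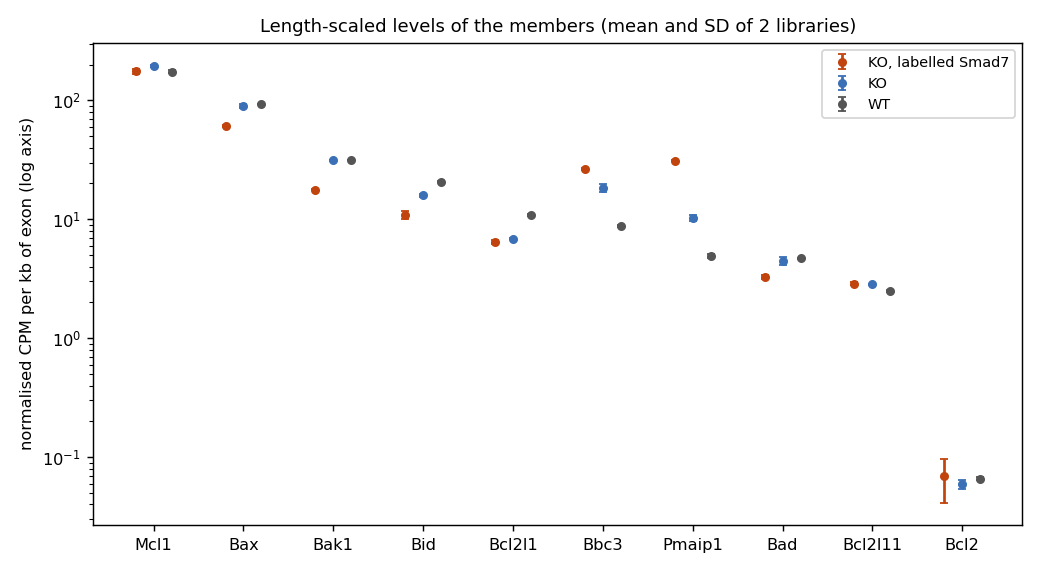
Length-scaled level of each member (normalised CPM per kb of exon, log axis) in KO_Smad7, KO and WT, as the mean and SD of 2 libraries. Levels run from about the Mcl1 value of 175.5 to the Bcl2 value of 0.069 CPM per kb in KO_Smad7, and Pmaip1 shows the widest gap between groups.

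For the anti- and the pro-apoptotic member that varied most between groups, the genes with the closest pattern over the 6 libraries were looked up among 10311 genes, by Euclidean distance of centred log2 CPM. For Bcl2l1 they were Rnf139 (distance 0.058), Prpf38b (0.098) and Pde1b (0.11). Rnf139, which encodes a ubiquitin ligase of the endoplasmic reticulum, had 28.7 ± 0.34 CPM in KO_Smad7, 30.6 ± 0.57 in KO and 49.2 ± 0.15 in WT. For Pmaip1 they were Nfasc (0.17), Pde8a (0.20) and Cyp2s1 (0.20). Nfasc, which encodes the adhesion protein neurofascin, had 23.8 ± 0.0090 CPM in KO_Smad7, 8.59 ± 0.26 in KO and 3.61 ± 0.11 in WT (SD, n = 2 each). These are descriptions of the same libraries that define the patterns.

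The surrounding pathway was described with 8 lists of 69 genes, of which 64 were tested. In KO against WT 32 were higher and 20 lower, in KO_Smad7 against KO 28 and 27, and in KO_Smad7 against WT 37 and 22. With library size scaling these counts were 37 and 16, 34 and 20, and 43 and 16. The lists are set beside the shares of all genes called, given with the members' counts. No such share is given for list counts with other scalings, with GC and length offsets or with DESeq2.

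All 8 listed regulators of BH3-only genes rose in KO against WT, with a median log2 fold of 1.01. Of all genes tested, 34.5% rose in that comparison. The list was chosen with earlier results of these data known. It leaves out Trp53, which fell and is counted with the p53 genes below. In KO_Smad7 against KO 6 rose and 1 fell (median 0.47), and in KO_Smad7 against WT 7 rose and 1 fell (median 1.77). Foxo3, which drives Bim and Puma transcription, had 324.3 ± 5.5 CPM in KO_Smad7, 199.2 ± 8.6 in KO and 60.3 ± 0.25 in WT (SD, n = 2 each), with log2 folds of 0.70 for KO_Smad7 against KO (adjusted p = 3.3e-40) and 1.73 for KO against WT (adjusted p = 8.4e-77, edgeR). Ddit3 (Chop), the stress factor, rose by 2.58 and Jun by 3.03 on the log2 scale in KO_Smad7 against WT. Trp73, the p53 relative, rose by 2.96 in the same comparison. E2f1 rose by 1.08 and Atf4 by 0.34 in KO against WT, Atf4 by 0.13 with GC and length offsets. The exception was Foxo4, on the X chromosome, which fell in KO_Smad7 against KO (log2 −0.97, adjusted p = 5.3e-43).

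Of 10 p53 regulators and targets, 5 rose and 3 fell in KO against WT (median 0.11, and 6 and 2 with GC and length offsets), 8 rose and 2 fell in KO_Smad7 against KO (median 0.99), and 8 rose and 2 fell in KO_Smad7 against WT (median 1.12). Trp53 itself fell, with 177.9 ± 1.1 CPM in KO_Smad7, 331.0 ± 11.4 in KO and 453.6 ± 7.6 in WT, and log2 folds of −0.45 for KO against WT (adjusted p = 1.8e-24) and −1.35 for KO_Smad7 against WT (adjusted p = 2.4e-72, edgeR). Mdm2, its ubiquitin ligase and target, had 427.3 ± 4.7 CPM in KO_Smad7, 153.0 ± 7.8 in KO and 155.4 ± 0.96 in WT, and rose by 1.48 on the log2 scale in KO_Smad7 against KO. Mdm4, which holds p53 inactive, rose by 1.04 in that comparison, and by 0.67 with GC and length offsets. Perp, a membrane protein induced by p53, rose by 2.00 in KO against WT (adjusted p = 4.3e-62) and by 1.38 in KO_Smad7 against KO (adjusted p = 9.7e-62, edgeR). Ccng1 (cyclin G1) fell by 0.50 in KO against WT and rose by 1.45 in KO_Smad7 against KO, and the fall was not called with GC and length offsets (−0.066, adjusted p = 0.058). Cdkn1a (p21) rose by 0.77 in KO against WT. Aen, also on this list, fell by 0.48 in KO against WT and by 0.74 in KO_Smad7 against WT. In KO_Smad7 against KO it fell by 0.26, a call lost with library size scaling (−0.015, adjusted p = 0.77, edgeR).

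Of the other Bcl2 family genes 15 were listed and 10 tested. In KO against WT 6 rose and 3 fell (median 0.41), in KO_Smad7 against KO 3 rose and 5 fell (median −0.19, and 4 and 3 with a median of 0.05 with library size scaling), and in KO_Smad7 against WT 7 rose and 3 fell (median 0.75), where DESeq2 called 4 higher and 3 lower. The mitophagy receptor Bnip3, known for its induction by low oxygen, had 76.7 ± 2.1 CPM in KO_Smad7, 50.1 ± 1.5 in KO and 4.67 ± 0.055 in WT (SD, n = 2 each). Its log2 fold was 3.42 for KO against WT (SE 0.093, adjusted p = 2.1e-73, edgeR) and 0.61 for KO_Smad7 against KO (adjusted p = 3.8e-21). With GC and length offsets the second value was 0.40. Its relative Bnip3l rose by 0.38 and 0.32 in those comparisons, and by 0.72 with the second call lost (0.071, adjusted p = 0.095) with GC and length offsets. The BH3-only genes Bmf and Hrk rose by 1.68 and 1.41 in KO against WT. Hrk rose by a further 0.99 in KO_Smad7 against KO, where Bmf fell by 0.23, a fall that library size scaling turned to 0.021. Bok, a Bax-like gene, fell by 1.82 in KO_Smad7 against WT.

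Genes downstream of the mitochondrial pore moved in both directions. Of 14 apoptosome and caspase genes 6 rose and 5 fell in KO against WT (median −0.0073), 3 rose and 7 fell in KO_Smad7 against KO (median −0.25), and 5 rose and 6 fell in KO_Smad7 against WT (median −0.15). With library size scaling the last 2 splits were 6 and 6 (median 0.0013) and 8 and 4 (median 0.24), and with GC and length offsets the first of them was 5 and 6. DESeq2 called 1 higher and 6 lower in KO_Smad7 against KO. Apaf1, the scaffold of the apoptosome, had 164.3 ± 2.0 CPM in KO_Smad7, 95.3 ± 1.2 in KO and 41.1 ± 0.34 in WT. It rose by 1.21 in KO against WT (adjusted p = 5.4e-50) and by 0.78 in KO_Smad7 against KO (adjusted p = 7.1e-39, edgeR). Cycs, which encodes somatic cytochrome c, did the reverse, with 19.6 ± 1.9 CPM in KO_Smad7, 36.1 ± 0.67 in KO and 74.8 ± 0.84 in WT. It fell by 1.05 in KO against WT (adjusted p = 1.7e-38, and by 0.61 with GC and length offsets) and by 0.89 in KO_Smad7 against KO (adjusted p = 6.3e-23). Casp9, the initiator caspase that Apaf1 recruits, rose by 0.94 in KO against WT. Htra2, a protease released from mitochondria, fell by 0.95 in KO_Smad7 against KO, and Dffa, the inhibitor of the caspase-activated nuclease, fell by 0.98 in KO_Smad7 against WT. Aifm1, on the X chromosome, rose by 0.85 in KO against WT and fell by 0.65 in KO_Smad7 against KO.

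Of the 6 outer membrane partners and fission genes 1 rose and 4 fell in KO against WT (median −0.20), 1 rose and 5 fell in KO_Smad7 against KO (median −0.50), and none rose and 5 fell in KO_Smad7 against WT (median −0.55). The first split was 3 and 2 with GC and length offsets (median 0.03), where Mtch2 and Vdac3 turned to 0.094 and 0.42, 2 and 3 with library size scaling, and 0 and 4 with RLE scaling. The last was 2 and 4 with library size scaling, where the 3 medians were −0.05, −0.25 and −0.16. The channel Vdac2, known to hold Bak1 at the membrane, had 193.8 ± 2.9 CPM in KO_Smad7, 325.5 ± 8.1 in KO and 388.0 ± 3.7 in WT, and fell by 0.75 in KO_Smad7 against KO (adjusted p = 4.3e-42, edgeR). Vdac1 fell by 0.62 and Vdac3 by 0.79 in that comparison, or by 0.40 and 1.46 with GC and length offsets. Mtch2, the membrane partner of Bid, fell by 0.61 in KO_Smad7 against WT (log2 fold −0.22 with library size scaling). Dnm1l, the fission GTPase, fell by 0.55 in KO against WT and rose by 0.57 in KO_Smad7 against KO, or by 0.14 and 0.16 with GC and length offsets.

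Of the 5 caspase inhibitors 2 rose and 3 fell in KO against WT (median −0.12, and 3 and 2 with a median of 0.37 with GC and length offsets, and 1 and 3 with RLE scaling), 1 rose and 3 fell in KO_Smad7 against KO (median −0.14), and 2 rose and 2 fell in KO_Smad7 against WT (median −0.0058). With library size scaling the 3 splits were 2 and 2 (median 0.03), 1 and 2 (median 0.10) and 3 and 2 (median 0.39). Birc5 (survivin) fell by 0.34 in KO against WT and by 0.54 in KO_Smad7 against KO. Birc6 fell by 0.23 and 0.49 in those comparisons, the last of these by 0.95 with GC and length offsets. Birc3, at 6.94 ± 0.81 CPM in KO and 3.21 ± 0.12 in WT, rose by 1.11 in KO against WT (adjusted p = 9.1e-10, edgeR). In KO_Smad7 against WT it rose by 1.05. Xiap, on the X chromosome, had 254.4 ± 12.3 CPM in KO_Smad7, 101.1 ± 3.1 in KO and 109.7 ± 5.2 in WT, and rose by 1.33 in KO_Smad7 against KO (adjusted p = 2.6e-64, edgeR). With GC and length offsets that rise was 0.096 (adjusted p = 0.011). Its small fall in KO against WT, −0.12, turned to 0.68 with GC and length offsets.

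In the death receptor pathway 2 of 7 genes rose and 1 fell in KO against WT (median 0.21), and 4 rose and 3 fell both in KO_Smad7 against KO (median 0.29) and in KO_Smad7 against WT (median 0.50). The first split was 4 and 1 with library size scaling, 1 and 2 with RLE scaling, 1 and 0 with DESeq2 and 1 and 1 with GC and length offsets, and the last was 4 and 1 with library size scaling. Fas had 4.39 ± 0.17 CPM in KO_Smad7, 0.309 ± 0.14 in KO and 0.143 ± 0.035 in WT, and rose by 3.79 on the log2 scale in KO_Smad7 against KO (SE 0.32, adjusted p = 1.8e-22, edgeR). Tnfrsf10b, the mouse TRAIL receptor and a p53 target, rose by 0.78 in KO against WT and by 0.79 in KO_Smad7 against KO. Cflar, which blocks caspase 8 at the receptor, rose by 0.68 in KO_Smad7 against KO (0.42 with GC and length offsets), where Ripk1 fell by 0.55. Tnfrsf1a fell by 1.12 in KO against WT, and DESeq2 did not call that fall (adjusted p = 0.12).

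Of the 4 genes whose products add or remove ubiquitin on Mcl1, 2 rose and 1 fell in KO against WT (median 0.23), 2 rose and 1 fell in KO_Smad7 against KO (median 0.42, and 2 and 2 with a median of −0.04 with GC and length offsets), and 4 rose in KO_Smad7 against WT (median 0.46). With library size scaling the first split was 2 and 0. The last count of 4 came to 3 with DESeq2, and to 3 with a median of 0.17 with GC and length offsets. The call not made by DESeq2 (adjusted p = 0.33) was Trim17. Its level was low, at 0.582 ± 0.094 CPM in KO_Smad7 and 0.225 ± 0.23 in WT (SD, n = 2 each). The ligase Huwe1 rose by 0.94 in KO against WT and fell by 0.52 in KO_Smad7 against KO (by 0.90 with GC and length offsets). Its rise of 0.41 in KO_Smad7 against WT turned to −0.052 with GC and length offsets. The deubiquitinase Usp9x rose by 0.35 in KO_Smad7 against KO, a value that GC and length offsets turned to −0.56. The ligase Fbxw7 fell by 0.19 in KO against WT, a call lost with library size scaling (−0.042, adjusted p = 0.53), and rose by 0.49 in KO_Smad7 against KO. Huwe1 and Usp9x lie on the X chromosome. The 631 X chromosome genes tested had a median log2 fold of 0.87 in KO against WT, 0.10 in KO_Smad7 against KO and 1.08 in KO_Smad7 against WT, beside 0.0046, 0.033 and 0.043 for autosomal genes. None of the 10 members is on the X chromosome.

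**Figure D5:**
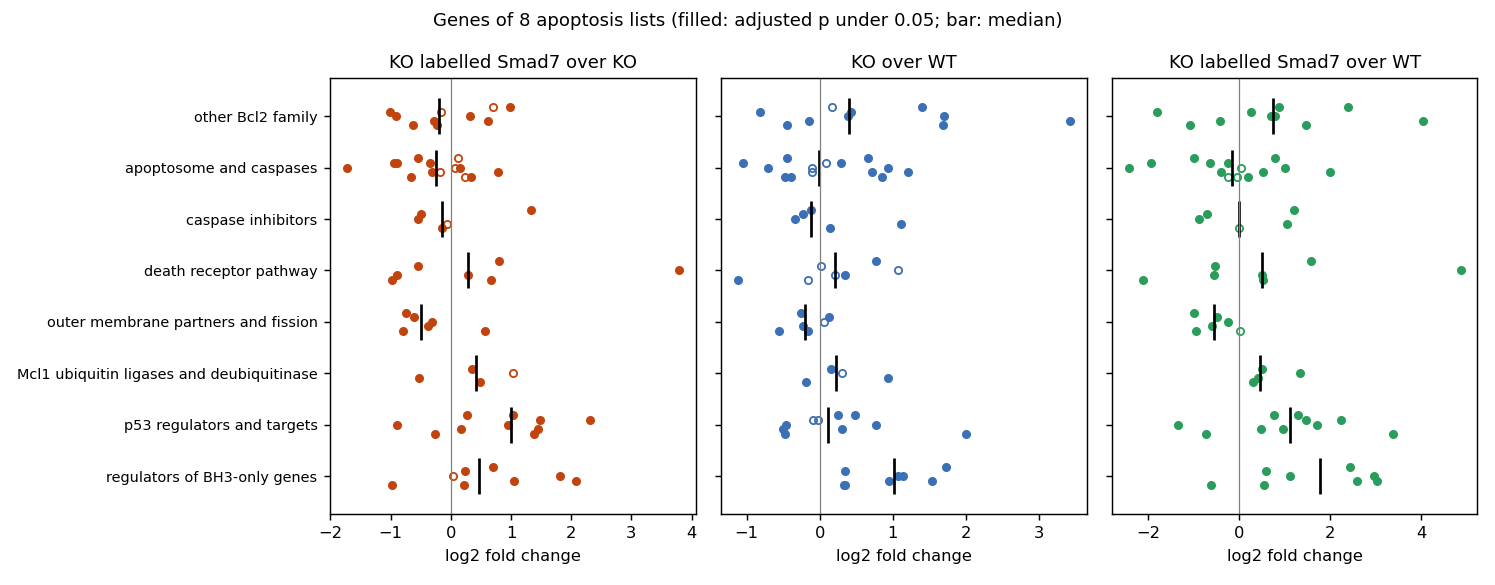
Log2 fold change (horizontal axes) of each tested gene of the 8 lists in the 3 comparisons, with filled points for an adjusted p under 0.05 and a bar at each list's median. The regulators of BH3-only genes lie to the right of 0 in KO against WT, with a median of 1.01, and the outer membrane genes lie mostly to the left in KO_Smad7 against KO, with a median of −0.50.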

How the data were processed

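Raw read counts per gene symbol were deposited by the authors for mouse E14 embryonic stem cell libraries, which the labels' protocols describe as poly(A)-selected and prepared with a TruSeq kit. STAR and featureCounts 1.6.3 and the builds mm10 and GRCm38 are named in the submitters' processing notes. No source used here states the gene annotation behind the counts, whether strand was used, or how reads shared by several genes were handled. The names of 2 other columns fit no sample in the labels, and these columns were left out, so the knockout transfected with lncSmad7 was not analysed here.

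The 6 libraries used were fitted together as 3 groups (3 residual degrees of freedom) with edgeR 4.0.16, limma 3.58.1 and R 4.3.3, after filterByExpr and TMM scaling, with the quasi-likelihood test (robust). Benjamini-Hochberg adjustment ran over the 17342 genes that passed the filter, a call needed an adjusted p under 0.05, and the members' rows were read from that fit. The SE of a log2 fold is its size divided by the square root of F. The common biological coefficient of variation was 2.47%. Chi-square per degree of freedom of replicate counts, over genes with a mean count of at least 10, was 2.00 in KO_Smad7, 1.81 in KO and 1.64 in WT, above sampling noise in each pair. The fit was tested on simulated data in which only a small part of the genes changed. That test does not cover changes as wide as those in these libraries, and nothing is concluded from it. Positions and exon lengths came from the GENCODE mouse annotation (GRCm38), matched by symbol. Promoter sequences came from RefSeq (GRCm38.p6). No protein sequence was used.

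Alternatives were RLE scaling, library size scaling, DESeq2 1.42.0, no filter, at least 1 CPM in 4 libraries, only the 4 libraries compared, a replicate block, glmTreat against a fold of 1.5, offsets for GC content and transcript length (values for 97.8% of genes tested), and each library left out in turn. The genes named are the 10 members and up to 4 genes of each of 8 pathway lists with the smallest adjusted p in each comparison, and the 3 genes nearest in pattern to the most variable member of each side among genes with a mean of at least 5 CPM. The lists were other Bcl2 family genes, apoptosome and caspases, caspase inhibitors, the death receptor pathway, outer membrane partners and fission, Mcl1 ubiquitin ligases and deubiquitinase, p53 regulators and targets, and regulators of BH3-only genes. Aen of the p53 list is named in addition. Members and lists were chosen with earlier results of these data known.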

Additional observations from a re-analysis of the deposited data

How the results depend on the processing

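Most values kept their direction and their side of the threshold under the other settings: 342 of the members' values did, while 37 lost and 9 gained a call and 28 turned. Of the counts of calls 228 stayed within 1.5-fold and 24 did not. Against a fold of 1.5 (glmTreat) the members called fell to 2 (2 higher, 0 lower) in KO against WT, 2 (1 higher, 1 lower) in KO_Smad7 against KO, and 5 (3 lower) in KO_Smad7 against WT. Of the 64 pathway list genes tested, the calls fell to 20 (17 higher, 3 lower), 25 (15 and 10) and 34 (22 and 12). That test asks for a larger change, and it called 27.4%, 34.6% and 53.1% of all genes tested. With GC and length offsets, with or without the replicate block, 2 members were higher and 5 lower in KO against WT, and with the offsets alone 3 were lower in KO_Smad7 against KO. With library size scaling 5 were higher and 3 lower in KO_Smad7 against KO. The cause of these changes was not tested, and the shares of all genes called with the offsets or with library size scaling are not given here. Directions turned as follows. In KO against WT, Bax came to 0.099 and Bad to 0.072 with library size scaling, and Bak1 to −0.055 with RLE scaling, −0.042 with DESeq2 and −0.23 with GC and length offsets, both with and without the block. In KO_Smad7 against KO, Bcl2l1 came to 0.15 with library size scaling, 0.0058 with at least 1 CPM in 4 libraries, 0.033 with the offsets and 0.032 with offsets and block, Mcl1 to 0.087 with library size scaling, and Bcl2l11 to −0.023 with no filter. In KO_Smad7 against WT, Bcl2 came to −0.16 with the offsets and −0.17 with offsets and block, and Mcl1 to −0.042 with RLE scaling, −0.022 with no filter, −0.016 with only the 4 libraries compared, −0.019 with the offsets, with or without the block, and −0.046 with DESeq2. With 1 library left out in turn, the lone library of its group being assumed to vary like the others, the ranges that cross 0 were −0.0075 to 0.013 (Bak1) and −0.13 to 0.00080 (Bad) in KO against WT, −0.27 to 0.56 (Bcl2) and −0.016 to 0.042 (Bcl2l11) in KO_Smad7 against KO, and −0.40 to 0.43 (Bcl2) and −0.047 to 0.063 (Mcl1) in KO_Smad7 against WT. The difference in the log2 ratio of pro- to anti-apoptotic sums ranged from −0.079 to 0.034 in KO_Smad7 against KO, −0.12 to −0.0077 in KO against WT and −0.13 to −0.038 in KO_Smad7 against WT. Bcl2 was not tested with the 1 CPM filter, nor in the fit of the 4 libraries of KO_Smad7 and WT. Few counts limit Bcl2, and the depth of 13392941 counts in one KO_Smad7 library is the lowest.

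The replicate block left the members called at 6 in KO against WT, 7 in KO_Smad7 against KO and 8 in KO_Smad7 against WT, and the pathway list genes called at 54, 55 and 59. Deviations of same-numbered libraries from their group means correlated at 0.073 (KO_Smad7 and KO), 0.0358 (KO_Smad7 and WT) and 0.124 (KO and WT). These values cannot show whether same-numbered libraries share a culture or a batch, and the libraries were not treated as pairs.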
